A study of Arabidopsis thaliana with 6 samples.

Results

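The cytochrome P450 (CYP) genes described here were the rows of an expression array that name exactly 1 gene and give it a symbol made of CYP, a family number, a subfamily letter and a gene number. This rule leaves out the cyclophilins, which share the prefix. It found 25 genes, each with 1 row of its own, among 16550 genes named by such rows and 38408 rows in all. Of the 25 genes 21 belong to the subfamily CYP71B, and the other 4 are CYP78A9, CYP79A2, CYP79C2 and CYP84A4. RefSeq lists 236 genes with such a symbol in Arabidopsis, 36 of them in CYP71B, so the values below are those of CYP71B and of 4 genes beside it rather than of the whole superfamily.

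The arrays measured total RNA of Arabidopsis suspension cells, labelled Alex, that were kept in the dark and carry a fusion of the transcription factor ATHB8 and green fluorescent protein under estrogen control. ATHB8 is a homeodomain leucine zipper protein known from the cells that give rise to vascular tissue. In the induced group (3 arrays) this line had been exposed to estrogen at 5 µM during 24 h, and in the uninduced group (3 arrays) it was sampled at 24 h with no estrogen given. All 6 arrays come from the transformed line, so the effects of estrogen and of the fusion protein cannot be told apart. The series was made to find genes downstream of ATHB8, which has no row under its name, so its own rise could not be read here.

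P450 enzymes are heme proteins, most of them anchored in the membrane of the endoplasmic reticulum, that take electrons from a reductase and insert an oxygen atom into a small molecule. In plants they act in the synthesis of lignin, hormones, sterols, wall lipids and defence compounds, and vascular cells are known for the P450 steps of lignin synthesis. CYP71B is a large subfamily in Arabidopsis, with many genes in tandem runs, and most of its members have no established substrate. Neighbouring copies of a run can be alike in sequence. Probe sequences were not analysed here, so signal from a near-identical copy cannot be told apart from that of the named gene.

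Signals are log2 values as deposited, and each difference is the induced minus the uninduced mean on that scale, so that a difference of 1 is a 2-fold change. The mean signals of 21 of the 25 CYP rows lay below the median of all row means, 5.84, and 16 of them below the 25th percentile, 3.80. Of all 16550 genes 52.8% lay below that median. Rows differ in their probes, so these signals are not compared between genes, and no level of background was analysed here. The median signal was 5.95 on both replicate 1 arrays and between 5.80 and 5.84 on the other 4 arrays. In 10 of the 25 CYP rows (40%) the induced and the uninduced array of replicate 1 had identical values, against 31.8% of all rows, 44.4% of all genes and 63.5% of the genes with a mean signal below the median row, and a same-numbered difference of 0 in pair 1 has this origin. The replicate 1 arrays also stood apart, in either direction, in some of the CYP genes without equal values. In CYP71B6, CYP84A4, CYP78A9, CYP71B22, CYP71B28 and CYP71B16 the replicate 1 array was the highest of both groups. In CYP71B29, CYP71B5, CYP71B35 and CYP71B38 it was the lowest of both groups. In CYP71B24, CYP71B36, CYP71B19, CYP71B32 and CYP71B34 it was not at the same end of both groups. The share of all rows with such a pattern was not counted.

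In the induced cells 1 CYP gene, CYP71B29, rose, and 0 of the 25 fell at an adjusted p under 0.05 in limma. Of all 38408 rows 0.633% passed in the upward and 0.328% in the downward direction, and 0.961% in either. A single gene of 25 is too few to set the family apart from this background. At an unadjusted p under 0.05 there were 2 CYP genes, CYP71B29 and CYP71B5, against 8.48% of all rows. Members with a role given here, none of which passed, were the glucosinolate enzyme CYP79A2, the indole enzyme CYP71B6, the arabidopyrone enzyme CYP84A4, the linalool enzyme CYP71B31 and the growth regulator CYP78A9. The median difference over the 25 genes was 0.04 and over all rows -0.01. Differences lay above 0 in 15 CYP genes and below 0 in 10, and 46.8% of all genes lay above 0. In the same-numbered pairs 1, 2 and 3 the median of the 25 genes was 0.00, 0.00 and -0.05.

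**Figure D1:**
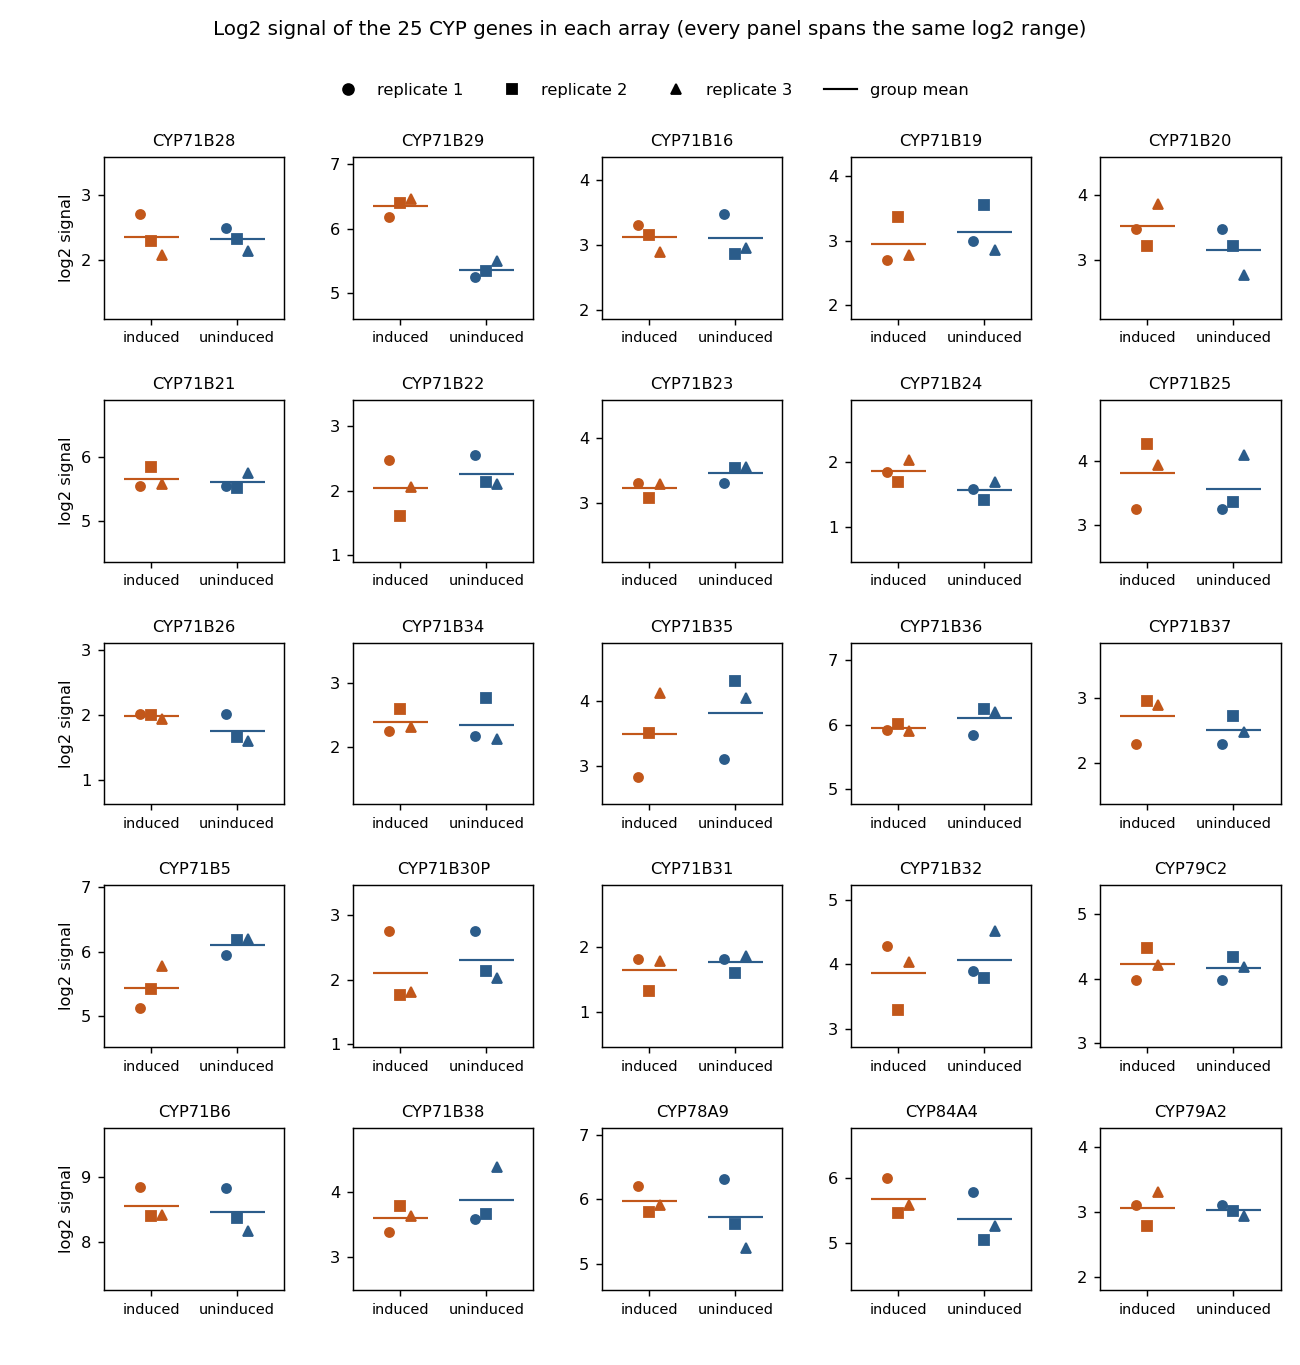
Log2 signal of each of the 25 CYP genes in the 3 induced arrays (left, orange) and the 3 uninduced arrays (right, blue), with replicate numbers as symbols and group means as lines; every panel spans the same range on its vertical axis. CYP71B29 shows 3 induced arrays at 6.18 to 6.46, all above the uninduced arrays at 5.26 to 5.50, while in most panels the groups overlap.

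CYP71B29 (AT1G13100) encodes a member of CYP71B for which no substrate is stated here. Its log2 signal was 6.18, 6.39 and 6.46 in the induced arrays 1, 2 and 3, against 5.26, 5.34 and 5.50 in the uninduced arrays. Every induced array lay above every uninduced one, and the gap between the groups was wider than the spread within either. The mean was 6.35 ± 0.15 in induced cells and 5.37 ± 0.12 in uninduced cells (SD, n = 3 each). The difference of 0.98 ± 0.13 (SE), with a 95% interval of 0.67 to 1.29, is a 1.97-fold rise (limma adjusted p = 0.0339). The same-numbered pairs 1, 2 and 3 differed by 0.93, 1.05 and 0.96, so that the rise was about as large in the replicate 1 arrays as in the others. Of all 16550 genes 147 had a higher difference, 94 of which also passed the test.

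The size of the CYP71B29 difference stayed between 0.92 and 1.06 in the 18 other processings run, but 9 of them ended the call. Leaving out any 1 array ended it, with adjusted p = 0.0587 without induced replicate 1, 0.197 without induced replicate 2 and 0.174 without induced replicate 3, and 0.101, 0.176 and 0.127 without uninduced replicates 1, 2 and 3. Quantile normalization (0.0638), median subtraction (0.0669) and replicates 2 and 3 alone (0.109) ended it too. Over all rows the count of calls fell to between 48 and 167 without single arrays, against 369 with all 6 arrays. With the replicate number as a block CYP71B29 passed (adjusted p = 0.0428), while the count over all rows was 242 (0.63%).

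**Figure D2:**
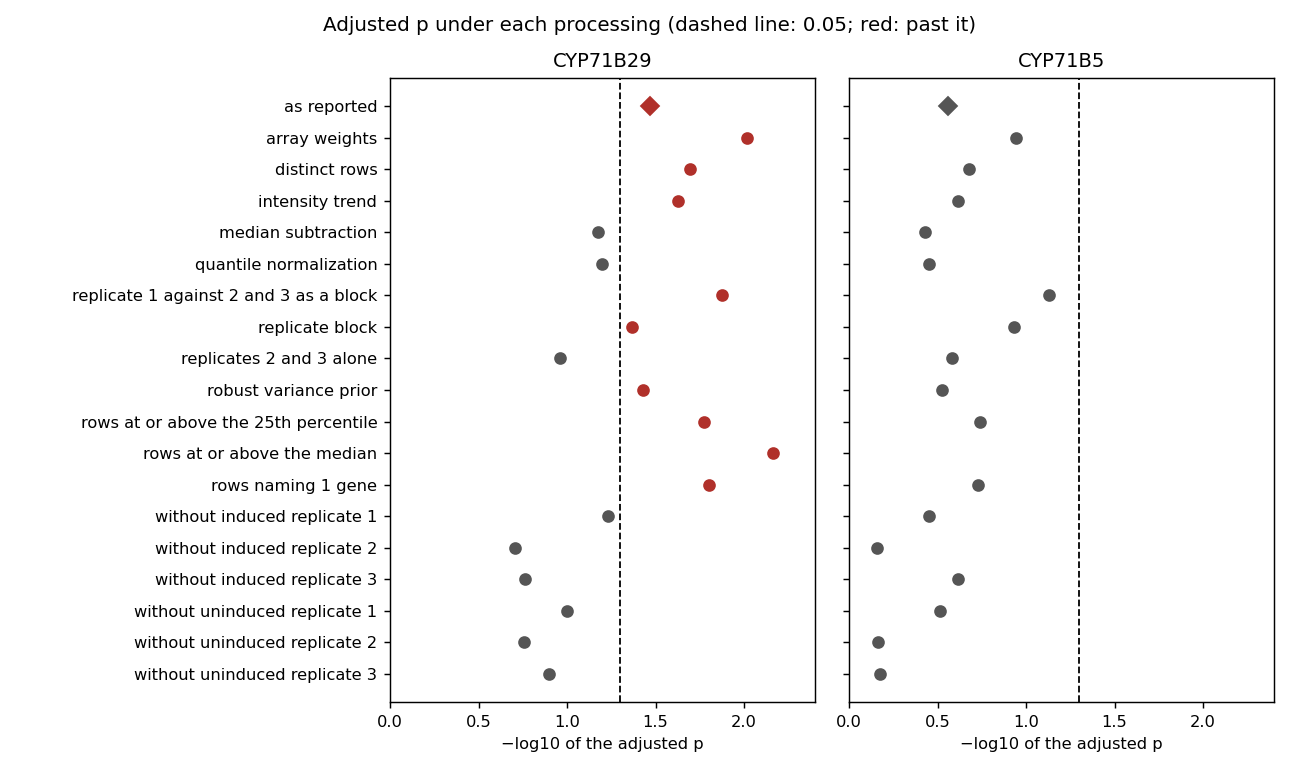
The −log10 of the limma adjusted p of CYP71B29 (left) and CYP71B5 (right) under each processing, with the reported fit as a diamond and the threshold of 0.05 as a dashed line; CYP71B5 has no point where the filter at the median removed its row. CYP71B29 lies past the threshold as reported and in 9 of the 18 alternatives, and CYP71B5 in 0 of 17.

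CYP71B29 stands in a run of CYP71B genes, between CYP71B28 and CYP71B7 in the gene order of RefSeq. CYP71B28 (AT1G13090), the neighbour on one side, gave 2.72, 2.29 and 2.08 in induced arrays 1, 2 and 3, against 2.50, 2.33 and 2.14 in uninduced arrays. The groups overlapped, and the difference was 0.04 ± 0.20 (SE) with an interval of -0.43 to 0.52. CYP71B7 on the other side and CYP71B2, on the far side of CYP71B28, have no row naming them alone and were not analysed here. AT1G13130, 3 genes from CYP71B29, differed by 0.50 ± 0.26 (limma adjusted p = 0.771).

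CYP71B5 (AT3G53280) was the CYP gene with the lowest difference. Its signal was 5.13, 5.42 and 5.78 in induced arrays 1, 2 and 3, against 5.95, 6.18 and 6.20 in uninduced arrays. All induced arrays lay below all uninduced ones, with a wider spread among the induced arrays (SD 0.32, n = 3) than among the uninduced ones (SD 0.14, n = 3). The difference was -0.67 ± 0.19 (SE), with an interval of -1.12 to -0.21, and did not pass over all rows (limma adjusted p = 0.277). It was -0.81, -0.76 and -0.42 in pairs 1, 2 and 3. The adjusted p was 0.117 with the replicate block, 0.0745 with a block that sets replicate 1 apart from replicates 2 and 3, and at least that in each of the 17 processings that kept the row.

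The loci next to CYP71B5 hold 3 more members, all with differences below 0 that did not pass. CYP71B30P (AT3G53290), named as a pseudogene but listed as protein-coding in RefSeq, differed by -0.20 ± 0.33 (SE), with equal values of 2.75 in both replicate 1 arrays, then 1.77 and 1.81 in induced arrays 2 and 3 against 2.14 and 2.03 in uninduced arrays. CYP71B31 (AT3G53300), reported to act on linalool in flowers, differed by -0.12 ± 0.17. CYP71B32 (AT3G53305) differed by -0.20 ± 0.31, and its same-numbered pairs gave 0.39, -0.49 and -0.49. The median of these 4 genes was -0.20, and the AT3G53 loci had 0 members above 0 and 0 called. AT3G53294, which lies between CYP71B30P and CYP71B31 and is no P450 by name, differed by 0.24 ± 0.22.

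The largest run, with AT3G26 loci, held 13 measured CYP71B genes, of which 0 passed. Their differences ranged from -0.34 to 0.37 with a median of 0.04, 8 above 0 and 5 below. Signs were mixed along the run: of the 12 pairs of measured members next to each other in locus order, 6 had the same sign and 6 opposite signs. CYP71B24 (AT3G26230) gave 1.85, 1.69 and 2.04 in induced arrays against 1.58, 1.41 and 1.69 in uninduced arrays, with a mean signal at percentile 1.06 of all rows. Its groups did not overlap by a narrow margin, and its difference of 0.30 ± 0.14 (SE) did not pass (limma adjusted p = 0.697). CYP71B23 (AT3G26210) gave 3.29, 3.08 and 3.28 in induced arrays against 3.29, 3.53 and 3.55 in uninduced arrays, a difference of -0.24 ± 0.13 (adjusted p = 0.799). Replicate 1 was equal in both groups of CYP71B23, and only replicates 2 and 3 lay lower on induction.

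Other members of that run rested on single arrays or on replicates 2 and 3. CYP71B20 (AT3G26180) gave 3.48, 3.22 and 3.86 in induced arrays against 3.48, 3.21 and 2.77 in uninduced arrays. Its difference of 0.37 ± 0.24 (SE) came from pair 3 alone, which differed by 1.096, against 0.00 in both other pairs. CYP71B26 (AT3G26290) gave 2.010, 1.999 and 1.936 in induced arrays against 2.010, 1.665 and 1.606 in uninduced arrays, a difference of 0.22 ± 0.14. CYP71B37 (AT3G26330) gave 2.30, 2.96 and 2.89 against 2.30, 2.73 and 2.48 in uninduced arrays, a difference of 0.22 ± 0.22. In both genes pair 1 was equal and pairs 2 and 3 were higher in induced cells. CYP71B36 (AT3G26320) gave 5.91, 6.01 and 5.90 in induced arrays against 5.85, 6.24 and 6.20 in uninduced arrays, a difference of -0.15 ± 0.14. The groups of CYP71B36 overlapped through replicate 1.

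CYP71B22 (AT3G26200) gave 2.467, 1.613 and 2.058 in induced arrays against 2.551, 2.133 and 2.104 in uninduced arrays, a difference of -0.22 ± 0.25 (SE). That difference was 0.00 without induced replicate 2 and -0.43 without induced replicate 1. CYP71B35 (AT3G26310) had the widest spread of the family, with 2.83, 3.50 and 4.13 in induced arrays against 3.11, 4.31 and 4.05 in uninduced arrays. Its difference of -0.34 ± 0.43 leaves an interval of -1.37 to 0.70. It was -0.007 without induced replicate 1 and -0.69 without uninduced replicate 1. CYP71B25 (AT3G26270) differed by 0.24 ± 0.33, with 0.00, 0.89 and -0.16 in pairs 1, 2 and 3. The intervals of CYP71B35 and CYP71B25 both reach past a 2-fold change, so these arrays do not bound their response to less than that. CYP71B19, CYP71B21, CYP71B34 and CYP71B16 differed by -0.19, 0.05, 0.04 and 0.02, with SE of 0.13 to 0.25.

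The CYP71B genes outside the runs were CYP71B6 and CYP71B38. CYP71B6 (AT2G24180), which turns indole acetonitrile into other indole compounds, gave 8.84, 8.41 and 8.42 in induced arrays against 8.83, 8.37 and 8.17 in uninduced arrays. Its groups overlapped, with a difference of 0.10 ± 0.21 (SE) and an interval of -0.42 to 0.62. CYP71B38 (AT3G44250) gave 3.39, 3.79 and 3.63 in induced arrays against 3.59, 3.66 and 4.39 in uninduced arrays. Its difference of -0.27 ± 0.24 rested largely on uninduced replicate 3: without that array it was -0.02.

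The 4 genes of other subfamilies all had differences above 0, none of which passed. CYP84A4 (AT5G04330), a hydroxylase of arabidopyrone synthesis from the family that also holds ferulate hydroxylase of lignin synthesis, gave 6.01, 5.47 and 5.58 in induced arrays against 5.79, 5.05 and 5.27 in uninduced arrays. The induced array was the higher one in every same-numbered pair, by 0.23, 0.42 and 0.32, although the groups overlapped through replicate 1. The difference was 0.32 ± 0.24 (SE; limma adjusted p = 0.973), and ± 0.08 with the replicate block (adjusted p = 0.199). CYP78A9 (AT3G61880), of a family that promotes growth of fruits and other organs, gave 6.20, 5.80 and 5.92 in induced arrays against 6.32, 5.63 and 5.25 in uninduced arrays. Its pairs ran from -0.11 to 0.67, for a difference of 0.24 ± 0.28. That difference was 0.002 without uninduced replicate 3 and 0.53 without uninduced replicate 1.

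Both CYP79 genes showed overlapping groups. Enzymes of that family turn amino acids into aldoximes, which feed glucosinolates and related compounds, and CYP79A2 does so with phenylalanine. CYP79A2 (AT5G05260) gave 3.11, 2.78 and 3.31 in induced arrays against 3.11, 3.02 and 2.94 in uninduced arrays, a difference of 0.04 ± 0.16 (SE) with an interval of -0.35 to 0.43. CYP79C2 (AT1G58260) gave 3.98, 4.47 and 4.21 in induced arrays against 3.98, 4.33 and 4.17 in uninduced arrays, a difference of 0.06 ± 0.17 with an interval of -0.35 to 0.47.

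**Figure D3:**
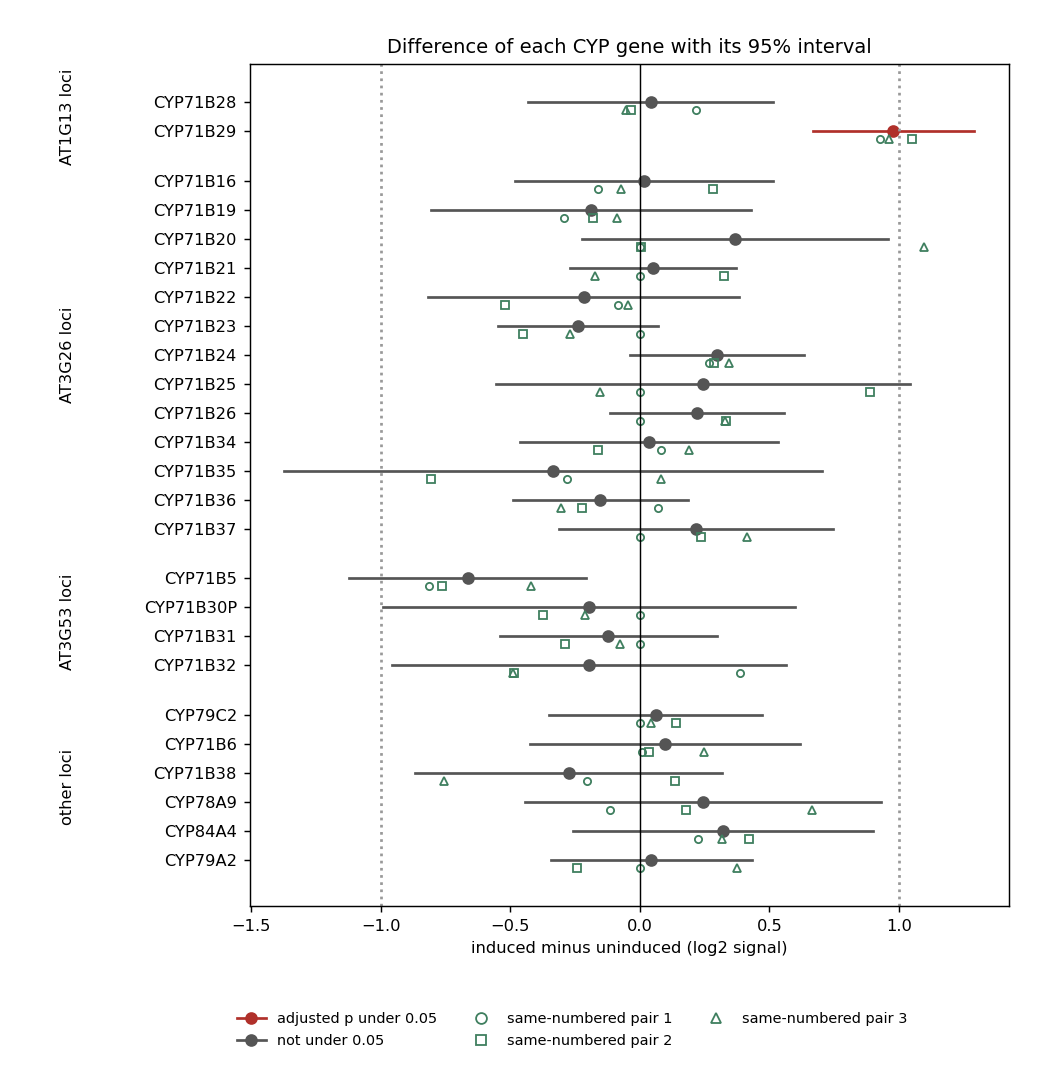
Difference between induced and uninduced cells in log2 signal for the 25 CYP genes (filled points) with the 95% interval of the limma fit (lines) and the 3 same-numbered pairs (open symbols), grouped by locus; dotted lines mark a 2-fold change. CYP71B29 at 0.98 is the 1 gene past an adjusted p of 0.05, CYP71B5 lies at -0.67, and the other 23 lie between -0.34 and 0.37.

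The intervals bound the change in array signal, not in transcript, for most of the 25 measured genes. Of the 25 rows 16 had a mean signal below the 25th percentile, and no level of background was analysed. In 10 of the 25 rows equal replicate 1 values set pair 1 to 0. For 21 of the 25 CYP genes (84%) the 95% interval lay within a 2-fold change in either direction, against 90.6% of all genes and 86.7% of the genes below the median row, and the 4 others were CYP71B29, CYP71B5, CYP71B35 and CYP71B25. The groups did not overlap in 3 CYP genes (12%), CYP71B29, CYP71B5 and CYP71B24. The share was 12.2% of all rows, 12.9% of all genes and 5.39% of the genes below the median row. CYP71B29 itself lay just above that median, at percentile 50.25 of all row means, but at percentile 44.89 of the uninduced means. The sign was the same in all 3 same-numbered pairs for 7 CYP genes (28%), against 30.8% of all rows. Rows with equal replicate 1 values, 40% of the CYP rows and 31.8% of all rows, cannot count here, so the shares are not strictly alike. The 7 genes were CYP71B29, CYP71B24, CYP84A4 and CYP71B6 above 0, and CYP71B5, CYP71B22 and CYP71B19 below 0. The median size of the difference, sign aside, was 0.22 in the CYP genes, 0.11 in all genes and 0.12 in all genes with a mean signal below the median row. These sets differ in their share of rows with a pair 1 difference of 0 from equal replicate 1 values. The share was 40%, 44.4% and 63.5%, and such rows were not taken out. The median SE was 0.20 in the CYP genes, 0.16 in all genes and 0.19 in the genes below the median row.

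Few other genes of the pathways in which P450s act were measured under their names. Of 142 such genes in 12 lists 8 had a row, and 0 of the 8 passed in either direction, with 1 above 0 and 7 below. The lists for P450 reductases and cytochrome b5, brassinosteroids, gibberellins, abscisic acid, cytokinins, sterols, carotenoids and triterpenes had 0 measured genes each. Among the 3 measured phenylpropanoid and flavonoid genes CCR2 (AT1G80820), a cinnamoyl-CoA reductase, gave 6.77, 6.12 and 6.60 in induced arrays against 7.58, 7.26 and 7.70 in uninduced arrays. Its groups did not overlap, and its difference of -1.02 ± 0.21 (SE) did not pass (limma adjusted p = 0.119). HCT, an acyltransferase of the same pathway, differed by -0.11 ± 0.11. In the glucosinolate list the glucosyltransferases UGT74B1 and UGT74C1 differed by -0.30 ± 0.20 and 0.04 ± 0.12. JMT, which methylates jasmonate, differed by -0.21 ± 0.22, and FACT, a fatty alcohol acyltransferase of suberin, by -0.14 ± 0.30.

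Of 22 markers of xylem, phloem and photosynthetic leaf cells 2 had a row, so the labelled cell type could not be checked in depth. GUT2, of xylan synthesis in secondary walls, differed by -0.02 ± 0.11 (SE), and the 4 phloem markers had 0 rows. RCA, the rubisco activase of green tissue, gave 5.60, 5.87 and 5.70 in induced arrays against 5.22, 4.93 and 5.25 in uninduced arrays. The groups of RCA did not overlap, and its difference of 0.59 ± 0.14 did not pass (limma adjusted p = 0.172). Whether RCA and CYP71B29 are related in any way was not tested.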

How the data were processed

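Per the labels, biotin-labelled sense-strand DNA was made from total RNA and hybridised to a GeneChip. The deposited log2 values, 1 for each row and array, came from Affymetrix Expression Console 1.3, a tool that the submitters' processing notes list without settings. Background correction, normalization and genome build are not given in the sources used here, so no coordinates are reported. All 25 CYP symbols of the array's annotation equal the current RefSeq symbol (TAIR10.1), which gave locus codes and gene order.

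The comparison was made in R 4.3.3 by limma 3.58.1 (lmFit, eBayes, two-sided, no block, no filter), and p-values were adjusted by Benjamini-Hochberg over 38408 rows with a threshold of 0.05. SE and 95% intervals come from that fit. Its calls and estimated differences were tested on simulated data with independent arrays and no equal values between arrays. The SE and intervals were not checked by that simulation. An exact permutation test of 3 against 3 cannot go below 0.10. No label calls the replicates separate cultures, so their spread may be technical. Deviations from group means correlated by 0.633, 0.268 and 0.248 between same-numbered arrays, above the limit of 0.1 for a replicate block, but unlike-numbered arrays 2 and 3 gave 0.244 and 0.260. The 0.633 of the replicate 1 pair, which had equal values in 31.8% of rows, sets replicate 1 apart. Replicate 1 arrays against arrays 2 and 3 of the other group gave -0.41 to -0.38. Deviations within a group sum to 0. Negative values here, and positive ones among arrays 2 and 3, therefore largely follow from the 0.633 and are not separate evidence. The reported fit has no block, so its SE, intervals and p-values do not take this structure into account. The alternatives were other normalizations, row filters, variance models and blocks, and leaving out each array.

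Members and lists were chosen with earlier results of these data known. Values in each array are given for called members, the 12 with the smallest p, the 3 largest rises and falls, and up to 2 members of each role. CYP71B28, CYP71B30P and CYP79C2 were added after their values were seen. In other lists the called genes and up to 2 with the smallest p are named. Figures were drawn with matplotlib 3.10.9.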

Additional observations from a re-analysis of the deposited data

How the results depend on the processing

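The count of CYP genes past the threshold was 1 as reported and 0 with quantile normalization, median subtraction and replicates 2 and 3 alone, and it ranged from 0 to 0 without single arrays. In the first 3 of these settings CYP71B29 differed by 0.96, 0.96 and 1.01, and without single arrays by 0.92 to 1.06. The 9 settings that kept its call included the replicate block, array weights, both filters on low signal and the fit on rows naming 1 gene. The filter at the median row used the mean of all 6 arrays. CYP71B29 lay at percentile 50.25 of those means but at 44.89 of the uninduced means. It passed that filter through its induced arrays, so this setting is not independent of its rise. The median over the CYP genes was 0.04 as reported, 0.17 over the 4 genes left by the filter at the median row, and -0.020 to 0.074 without single arrays. CYP78A9, like CYP71B29, passed the filter at the median row through its induced arrays. It lay at percentile 50.2 of all means and 48.73 of the uninduced means. The 0.17 is therefore not independent of the differences. Calls over all rows numbered 369 as reported, 242 with the replicate block, 1106 with a block that sets replicate 1 apart, 80 in replicates 2 and 3 alone, 977 with array weights, 746 with an intensity trend, 613 on distinct rows, 691 and 827 with the filters at the 25th percentile and the median, 750 at an adjusted p under 0.10, and 48 to 167 without single arrays. CYP79A2 changed sign with array weights (-0.007), and without single arrays it ran from -0.077 to 0.188 and CYP71B6 from -0.046 to 0.282; none of these passed. The filter at the 25th percentile kept 9 of the 25 CYP genes. Each CYP gene has 1 row and its symbol in the array annotation, so averaging rows or using that annotation alone changes nothing. Apart from what the construction of a setting shows (fewer arrays, fewer rows), the cause of these changes was not tested. With 3 arrays in each group and SE of 0.13 to 0.43 over the 25 CYP genes, small changes could not be resolved, in dim or brighter rows. Signals were not set against background.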
